A study of Mus musculus with 16 samples.

Results

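Protocadherins are the largest group of cadherin adhesion proteins. They were described here across the epithelium and mesenchyme of mouse salivary glands, from every gene whose symbol in the deposited expression table starts with Pcdh. The rule found 66 genes among the 23380 genes of that table. Of these, 12 belong to the alpha cluster, 22 to the beta cluster and 20 to the gamma cluster, and 12 are unclustered genes elsewhere in the genome or beside the clusters. RNA was sequenced in bulk from 16 libraries in 4 groups of 4: parotid epithelium, submandibular epithelium, parotid mesenchyme and submandibular mesenchyme. All animals were wild-type mice of the outbred ICR strain at embryonic day 13, and the labels name no treatment and no engineered allele. Epithelium is the branching tissue that makes ducts and secretory end pieces, and mesenchyme is the connective tissue around it, which in whole dissected tissue also holds vessels, nerves, muscle precursors and blood. Each group's replicates are described as biologically independent, and the number of embryos pooled in each is not stated, so p-values measure the spread among these libraries. The design text also mentions a period of culture, which the sample titles and the protocol do not.

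Protocadherins are single-pass membrane proteins whose outer cadherin repeats bind the same protein on a neighbouring cell. The clustered genes lie side by side in the genome. In the alpha and gamma clusters each variable exon has its own promoter and is spliced to constant exons that the whole cluster shares, whereas each beta gene is a separate coding exon. In neurons the promoters are chosen largely at random in each cell, with CTCF and cohesin looping a distant enhancer to the chosen promoter and DNA methylation silencing others, and the few C-type genes at the end of the alpha and gamma clusters are used more steadily. The unclustered delta protocadherins signal through their cytoplasmic tails: several recruit the actin-regulating WAVE complex, others bind a protein phosphatase, and they are known for cell sorting, cell migration and axon outgrowth. Their roles were worked out mainly in the brain, and little of that work concerns glands.

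The promoters of 5 unclustered genes are printed because the gland comparison in mesenchyme turns on them. Pcdh19, Pcdh9, Pcdh7 and Pcdh10 were far higher in parotid than in submandibular mesenchyme, whereas the mean of Pcdh20 was lower there and its difference did not pass the test. Each window runs from 250 bases before to 50 bases after the start of the gene, as RefSeq places it on GRCm38.p6, and reads 5′ to 3′ on the strand of the gene. Capitals mark a GC box (GGGCGG or its reverse complement) or an E-box (CANNTG), and no marked motif overlaps another.
Pcdh19, chrX:133688944-133689243, minus strand: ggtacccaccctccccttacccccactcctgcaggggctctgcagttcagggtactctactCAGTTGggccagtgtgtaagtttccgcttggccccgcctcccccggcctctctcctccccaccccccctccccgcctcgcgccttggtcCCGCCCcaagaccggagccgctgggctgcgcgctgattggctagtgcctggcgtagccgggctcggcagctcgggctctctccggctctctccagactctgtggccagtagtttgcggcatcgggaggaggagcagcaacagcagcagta
Pcdh9, chr14:93890630-93890929, minus strand: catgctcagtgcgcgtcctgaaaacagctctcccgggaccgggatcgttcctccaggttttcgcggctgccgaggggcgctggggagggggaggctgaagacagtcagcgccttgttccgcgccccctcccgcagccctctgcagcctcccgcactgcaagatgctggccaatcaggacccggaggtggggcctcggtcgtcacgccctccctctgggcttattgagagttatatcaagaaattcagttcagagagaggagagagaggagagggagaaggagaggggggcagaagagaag
Pcdh7, chr5:57717831-57718130, plus strand: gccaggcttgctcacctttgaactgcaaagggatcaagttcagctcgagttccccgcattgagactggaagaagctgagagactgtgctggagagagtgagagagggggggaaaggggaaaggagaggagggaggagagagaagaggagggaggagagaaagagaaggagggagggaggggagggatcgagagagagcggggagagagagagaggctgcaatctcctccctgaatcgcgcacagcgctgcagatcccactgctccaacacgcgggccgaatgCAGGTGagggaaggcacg
Pcdh10, chr3:45378148-45378447, plus strand: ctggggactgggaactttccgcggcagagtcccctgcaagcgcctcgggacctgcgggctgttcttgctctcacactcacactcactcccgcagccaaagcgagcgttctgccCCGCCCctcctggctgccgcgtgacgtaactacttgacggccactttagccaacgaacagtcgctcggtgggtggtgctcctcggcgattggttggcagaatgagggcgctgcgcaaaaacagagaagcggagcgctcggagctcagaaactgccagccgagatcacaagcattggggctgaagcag
Pcdh20, chr14:88471347-88471646, minus strand: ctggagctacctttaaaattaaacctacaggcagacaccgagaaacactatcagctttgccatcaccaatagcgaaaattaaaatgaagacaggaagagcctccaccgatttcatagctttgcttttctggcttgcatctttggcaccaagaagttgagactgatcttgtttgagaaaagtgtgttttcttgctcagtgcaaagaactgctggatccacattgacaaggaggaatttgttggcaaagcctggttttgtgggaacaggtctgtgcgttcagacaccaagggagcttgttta
Of the 12 unclustered genes, 9 had a promoter in that table. GC content was 67.7% in the window of Pcdh19, 62.7% in that of Pcdh9, 59.3% in that of Pcdh7 and 62.3% in that of Pcdh10, against 43.7% in that of Pcdh20 and a median of 52.7% over 32851 mouse promoters. The windows of those genes held 18, 18, 11 and 24 CpG dinucleotides, against 4 in that of Pcdh20 and a median of 7. Of the other 2 genes higher in parotid mesenchyme that had a promoter, Pcdh17 had a GC content of 65.0% with 26 CpG. Pcdh15 had 50.7% with 8 CpG, below that median GC, with a TATA box and 3 E-boxes. Its window (chr10:73821617-73821916) lies inside the gene as GENCODE M21 places it (start 73099342, plus strand). Pcdh18 and Pcdh8, not called between the mesenchymes, also exceeded both medians. Pcdh18 had 63.0% with 23 CpG and a GC box, and Pcdh8 had 54.3% with 14 CpG. Of the 5 printed windows, a GC box was found for Pcdh19 and Pcdh10, and in 35.7% of all promoters. An E-box was found for Pcdh19 and Pcdh7, and in 72.3% of all promoters. Neither TATAAA nor TAATTA, searched on both strands, occurred in these 5 windows, and they occurred in 13.6% and 5.29% of all promoters. The start used for Pcdh9 is the upstream of a pair that lie close together.

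Library totals lay between 16912258 and 27646844 gene counts, of which protocadherins took 0.0377 to 0.0504% in epithelium and 0.112 to 0.262% in mesenchyme. The labelled layers bore their markers. In CPM, the depth-scaled count, the sum of 10 epithelium markers was 2421 to 2828 for parotid epithelium, 2348 to 2805 for submandibular epithelium and at most 54.3 for mesenchyme. All 10 were called higher in epithelium of each gland. Summed mesenchyme markers were 131 to 434 CPM for parotid epithelium and 42.9 to 330.4 CPM for submandibular epithelium, against 21561 to 30921 CPM in parotid mesenchyme and 13577 to 15906 CPM in submandibular mesenchyme. No library was a repeat of another, since chi-square per gene was at least 10.02 in each of the 24 within-group pairs. In these bulk samples, fewer cells of a type and less RNA per cell cannot be told apart.

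A filter on low counts passed 58 of the 66 genes to the test, which was edgeR's quasi-likelihood test over 18191 genes; a call needed a Benjamini-Hochberg adjusted p below 0.05. It passed 5 of 12 alpha, 21 of 22 beta, 20 of 20 gamma and 12 of 12 unclustered genes. The 8 genes left out were Pcdhb1 and 7 alpha genes (Pcdha2, Pcdha3, Pcdha6, Pcdha7, Pcdha8, Pcdha11 and Pcdhac1), none with a group mean over 0.67 CPM. Genes near 0 in epithelium passed through their mesenchymal counts, so the counts of calls below describe the genes tested and are no measure of how far the family stands apart.

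In mesenchyme, 7 of the 12 unclustered protocadherins were higher in the parotid gland than in the submandibular gland, and none was called lower. As fold changes fitted by the model, they were 25.3-fold for Pcdh19, 21.9-fold for Pcdh11x, 7.95-fold for Pcdh9, 7.88-fold for Pcdh7 and for Pcdh15, 6.22-fold for Pcdh10 and 4.25-fold for Pcdh17. Their median log2 difference over the 12 genes was 2.36, against 0.04 over all genes tested. Over all protocadherins 20 were higher and 1 was lower, or 21 of 58, where 20.8% of all genes tested were called higher, 13.7% lower and 34.5% in either direction.

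Pcdh19 (chrX:133582860-133688987, minus strand, GRCm38) is a delta protocadherin whose loss causes an epilepsy of girls and women in humans. It had 131, 149.7, 157 and 195 CPM in parotid mesenchyme, against 6.33, 5.64, 7.28 and 5.77 CPM in submandibular mesenchyme. The groups lay wide apart (log2 fold change 4.66, SE 0.38, edgeR adjusted p = 2.51e-07). Pcdh11x (chrX:120290259-120910619, plus strand), a delta protocadherin of the subgroup whose tail can bind a protein phosphatase, had 96.0, 154, 169 and 211 CPM in parotid mesenchyme, against 8.88, 8.09, 6.25 and 5.55 CPM in submandibular mesenchyme (4.45, SE 0.33, adjusted p = 9.06e-08). Here too no libraries overlapped, and parotid replicate 1 was lowest and replicate 4 highest.

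Pcdh9 (chr14:93013410-93890679, minus strand), of the phosphatase-binding subgroup, had 305, 463, 462 and 571 CPM in parotid mesenchyme, against 43.1, 68.4, 66.5 and 48.5 CPM in submandibular mesenchyme (log2 fold change 2.99, SE 0.39, adjusted p = 3.64e-05). Pcdh7 (chr5:57717967-58133230, plus strand), of the same subgroup, had 189, 307, 288 and 383 CPM in parotid mesenchyme, against 54.1, 28.7, 33.9 and 31.3 CPM in submandibular mesenchyme (2.98, SE 0.21, adjusted p = 2.28e-08). Neither gene's groups overlapped, and the highest submandibular library of Pcdh7 was replicate 1.

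Pcdh10, a delta protocadherin that recruits the WAVE complex, had 76.6, 103, 107 and 128 CPM in parotid mesenchyme, against 17.3, 16.3, 19.1 and 13.99 CPM in submandibular mesenchyme (2.64, SE 0.31, adjusted p = 6.84e-06). Pcdh17, which guides axon bundles through the same complex, had 85.5, 71.6, 67.8 and 78.7 CPM in parotid mesenchyme, against 18.8, 12.6, 18.5 and 21.5 CPM in submandibular mesenchyme (2.09, SE 0.24, adjusted p = 4.3e-06). Pcdh15, the tip-link protein of inner-ear hair cells, was the weakest of the 7 in level, with 13.6, 15.9, 13.8 and 24.6 CPM in parotid mesenchyme, against 1.94, 2.497, 2.94 and 1.198 CPM in submandibular mesenchyme (2.98, SE 0.60, adjusted p = 1.11e-03). In each of these 3 genes every parotid library stood above every submandibular one.

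**Figure D1:**
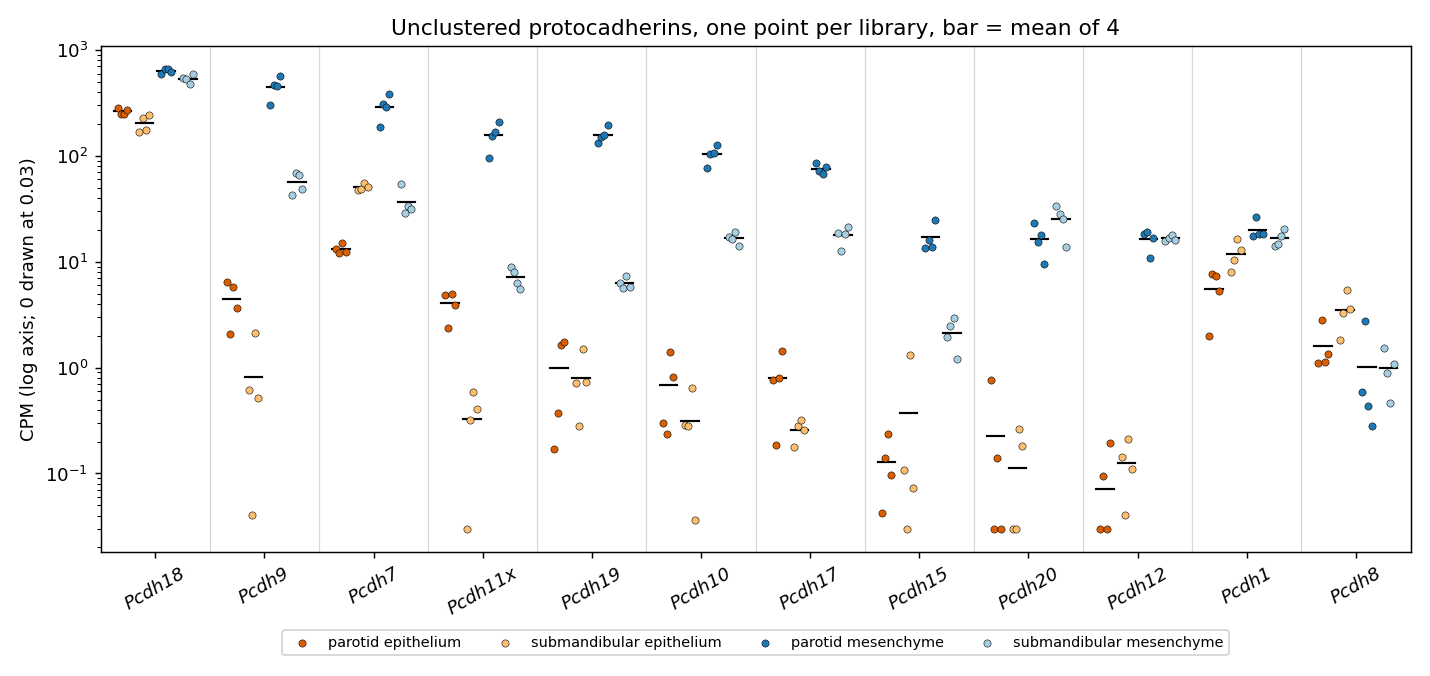
CPM of the 12 unclustered protocadherins on a log axis, with a point for each of 4 libraries and a bar at the mean of parotid epithelium, submandibular epithelium, parotid mesenchyme and submandibular mesenchyme. Parotid mesenchyme stands above submandibular mesenchyme for Pcdh9, Pcdh7, Pcdh11x, Pcdh19, Pcdh10, Pcdh17 and Pcdh15, and Pcdh18 is the only gene above 100 CPM in all 4 groups.

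Replicates of parotid mesenchyme differed in level. Pcdh7, Pcdh9, Pcdh10, Pcdh11x, Pcdh15 and Pcdh19 were all lowest in replicate 1 and highest in replicate 4, and the summed beta cluster was as well. Pcdh17 went another way, with 85.5, 71.6, 67.8 and 78.7 CPM, and Pcdh20 was highest in replicate 1 and lowest in replicate 4. Neuron markers rose from replicate 1 to 4: the sum over 12 markers was 1289, 1339, 1924 and 2209 CPM in parotid mesenchyme, against 196, 180.5, 377 and 208 CPM in submandibular mesenchyme. Mesenchyme markers were also lowest in replicate 1 and highest in replicate 4, at 21561, 28019, 23141 and 30921 CPM in parotid mesenchyme, against 13577 to 15906 CPM in submandibular mesenchyme, and 1 of 10 (Vim) was called higher. Erythroid markers summed to 1262 to 2014 CPM in parotid mesenchyme, against 2888 to 3591 CPM in submandibular mesenchyme. Most of the neuron sum was the neurofilament gene Nefl, at 892, 791, 1346 and 1422 CPM in parotid mesenchyme, against 59.9 to 63.7 CPM in submandibular mesenchyme. Stmn2, a tubulin-binding gene of growing axons, had 177 to 469 CPM in parotid mesenchyme, against 4.85 to 26.3 CPM in submandibular mesenchyme.

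The list was not of a piece. Of its 12 genes, 6 were called higher in parotid mesenchyme (Tubb3, Stmn2, Prph, Gap43, Nefl and Syt1) and 4 lower, among them Elavl4, Hand2 and Dcx. The pan-neuronal gene Elavl3 had at most 1.64 CPM in parotid mesenchyme and at most 2.63 CPM in submandibular mesenchyme. Summed skeletal muscle markers were also higher in parotid mesenchyme, at 1325, 1304, 1111 and 356 CPM, against 160.0 to 327 CPM in submandibular mesenchyme. Their lowest parotid library was replicate 4, in which Pcdh7, Pcdh9, Pcdh10, Pcdh11x, Pcdh15 and Pcdh19 were highest. Smooth muscle and pericyte markers summed to 701 to 872 CPM in parotid mesenchyme, against 285 to 344 CPM in submandibular mesenchyme. The part of these tissues and cells in the protocadherin levels was not tested.

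The other 5 unclustered genes were not called between the mesenchymes. Pcdh18, a delta protocadherin that binds the adaptor Dab1, had 588, 663, 658 and 614 CPM in parotid mesenchyme, against 542, 537, 481 and 591 CPM in submandibular mesenchyme, and the groups overlapped (log2 fold change 0.23, SE 0.11, adjusted p = 0.12). Pcdh20 had 23.0, 15.3, 17.8 and 9.57 CPM in parotid mesenchyme, against 33.5, 28.1, 25.3 and 13.9 CPM in submandibular mesenchyme. The groups of Pcdh20 overlapped too, with the lowest library of each group its replicate 4. Pcdh12, an adhesion protein of endothelial cells, averaged 16.3 ± 3.64 CPM in parotid mesenchyme and 16.6 ± 0.86 CPM in submandibular mesenchyme (SD, n = 4 each). The summed endothelium markers were 588 to 886 CPM in parotid mesenchyme and 646 to 895 CPM in submandibular mesenchyme. Pcdh1, an adhesion protein also known from airway epithelium, averaged 20.2 ± 4.27 CPM in parotid mesenchyme and 16.7 ± 2.89 CPM in submandibular mesenchyme. Pcdh8, which in neurons removes cadherins from synapses, averaged 1.01 ± 1.16 CPM in parotid mesenchyme and 0.996 ± 0.442 CPM in submandibular mesenchyme.

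Per kilobase of exon that no other annotated gene shares, the unclustered genes could be ranked by level. In parotid mesenchyme Pcdh18 led with 118 CPM per kb, followed by Pcdh9 with 66.3, Pcdh7 with 34.9, Pcdh19 with 15.2 and Pcdh11x with 11.3. In submandibular mesenchyme Pcdh18 had 100.2 CPM per kb and the next were Pcdh9 with 8.35, Pcdh20 with 4.59 ± 1.5 and Pcdh7 with 4.42 ± 1.39, a pair that differed by less than their SD. Pcdh18 made up 27.3 to 38.1% of the unclustered counts of a library in parotid mesenchyme, against 69.1 to 76.7% in submandibular mesenchyme.

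In epithelium the gland differences went both ways: 4 unclustered genes were higher in parotid epithelium than in submandibular epithelium and 2 were lower. Over all protocadherins 10 were higher and 3 lower of 58, where 11.2% of all genes tested were higher, 9.72% lower and 20.9% in either direction. That total of 13 was 5 when only the epithelial libraries were fitted and 8 without parotid epithelium replicate 4. Pcdh7 was called lower, with 13.3, 12.2, 15.1 and 12.3 CPM in parotid epithelium, against 47.3, 49.2, 55.6 and 50.9 CPM in submandibular epithelium. It was thus 3.84-fold lower in parotid epithelium (log2 difference -1.94, SE 0.21, adjusted p = 7.4e-06), with the 4 libraries of each group close together. Pcdh1 was also lower, with 1.99, 7.74, 7.35 and 5.25 CPM in parotid epithelium, against 7.98, 10.3, 16.3 and 13.1 CPM in submandibular epithelium (-1.09, SE 0.32, adjusted p = 0.022). The groups of Pcdh1 nearly met, and its call was lost in 4 of 24 alternative analyses.

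Pcdh11x had 4.88, 2.39, 4.996 and 3.90 CPM in parotid epithelium, against no count in replicate 1 and 0.322, 0.583 and 0.403 CPM in the other libraries of submandibular epithelium (log2 difference 3.69, SE 0.47, adjusted p = 6.08e-05). Pcdh9 had 6.45, 2.06, 5.75 and 3.66 CPM in parotid epithelium, against 0.611, 0.0403, 2.12 and 0.513 CPM in submandibular epithelium (2.57, SE 0.55, adjusted p = 4.75e-03), and here replicate 3 of the submandibular group overlapped the parotid group. Pcdh17 was at 0.188 to 1.45 CPM in parotid epithelium, against 0.180 to 0.318 CPM in submandibular epithelium (1.63, SE 0.44, adjusted p = 0.015), again with overlap. Pcdh18 was higher by 1.29-fold, with 285, 248, 247 and 273 CPM in parotid epithelium, against 167, 230.0, 174 and 244 CPM in submandibular epithelium (adjusted p = 0.027). The lowest parotid and highest submandibular libraries of Pcdh18 were 247 and 244 CPM, and its call was lost in 5 of 24 alternatives.

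Mesenchymal RNA differed between these epithelial libraries. Summed mesenchyme markers were 181, 131, 434 and 393 CPM in parotid epithelium, against 42.9, 47.9, 330.4 and 122 CPM in submandibular epithelium, and 4 of 10 such markers (Col1a2, Twist1, Twist2 and Vim) were called higher in parotid epithelium. They amounted to 1.1% of the level of parotid mesenchyme in parotid epithelium and 0.903% of that of submandibular mesenchyme in submandibular epithelium. On the same measure Pcdh9 stood at 0.996 and 1.45%, Pcdh17 at 1.05 and 1.45%, and Pcdh11x at 2.57 and 4.55%. Pcdh18 was at 41.7 and 37.9%, and Pcdh7 at 4.53% in the parotid gland and 137% in the submandibular gland. Pcdh9 of submandibular epithelium was highest in replicate 3, the library of that group with most mesenchyme markers. In parotid epithelium the 2 did not peak together. Pcdh9 was highest there in replicate 1 (6.45 CPM, markers 181 CPM), and the markers were highest in replicate 3 (434 CPM, Pcdh9 5.75 CPM). Both were lowest in replicate 2. Macrophage markers summed to 17.6 to 26.2 CPM in parotid epithelium, against 0.899 to 9.02 CPM in submandibular epithelium, and 8 of 10 were called higher. Erythroid markers reached 475 CPM in parotid epithelium replicate 4 and 636 CPM in submandibular epithelium replicate 1. Without these 2 libraries Pcdh17 and Pcdh18 lost their calls (adjusted p = 0.157 and 0.147). The part of mesenchymal, macrophage and blood RNA in these levels was not tested.

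The gland contrast was then compared between the layers, as parotid minus submandibular in epithelium less the same in mesenchyme. It was lower in epithelium for 7 of the 58 tested protocadherins and higher for none, where 12.2% of all genes tested were lower, 8.67% higher and 20.9% in either direction. The count was 4 when scaled by library total alone, 3 with nearly no filter, and 4 without any of 5 single libraries. Pcdh7 was higher in the parotid gland in mesenchyme and lower there in epithelium (difference -4.92, SE 0.29, adjusted p = 1.29e-08). Pcdh19 was near 1 CPM in both epithelia, at 0.982 ± 0.825 CPM in parotid epithelium and 0.805 ± 0.5 CPM in submandibular epithelium (SD, n = 4 each), with its gland difference in mesenchyme (-4.34, SE 0.66, adjusted p = 2.48e-04). Pcdh15 differed as well (-4.32, SE 1.14, adjusted p = 0.012), but with 11 counts in all in parotid epithelium and 30 in submandibular epithelium, of which replicate 3 held 25. Without that library the difference of Pcdh15 was -1.99 (adjusted p = 0.191).

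Pcdh1 (-1.36, adjusted p = 0.035) and 3 clustered genes made up the rest: Pcdhac2 (-4.30, adjusted p = 0.014), Pcdhb20 (-0.82, adjusted p = 0.033) and Pcdhga2 (-0.94, adjusted p = 0.035). Pcdhga2 is named after its values were seen. The calls of Pcdh1, Pcdhb20 and Pcdhga2 were lost in 11, 15 and 14 of 23 alternatives. Pcdh11x, Pcdh9, Pcdh17 and Pcdh10, by contrast, had no called difference between the layers, with estimates of -0.76 ± 0.66, -0.42 ± 0.71, -0.46 ± 0.55 and -1.41 ± 0.70 (SE). Pcdh10 was called without parotid epithelium replicate 3 (-2.02, adjusted p = 0.040). That these missed the threshold does not show that the layers were alike.

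**Figure D2:**
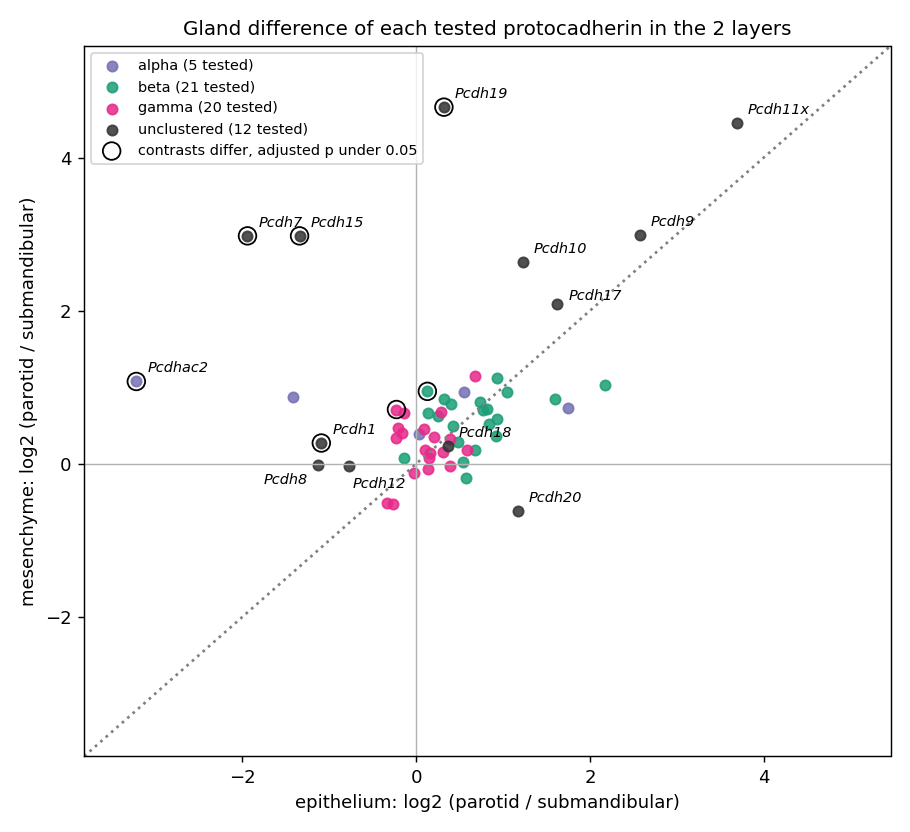
Log2 fold change of parotid over submandibular gland in epithelium (horizontal axis) and in mesenchyme (vertical axis) for the 58 tested protocadherins, coloured by class, with a dotted line of equal change and rings on genes whose contrasts differed between layers. Pcdh7 lies at -1.94 and 2.98, Pcdh11x at 3.69 and 4.45, and the tested gamma genes lie between -0.53 and 1.14 in mesenchyme.

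Between the layers, protocadherins were mostly mesenchymal. In the parotid gland 49 of 58 were lower in epithelium and none was called higher, where 33.5% of all genes tested were lower, 31.4% higher and 64.9% in either direction. In the submandibular gland 46 were lower and 2 higher, where 33.7% of all genes were lower, 33.3% higher and 67% in either direction. The median log2 difference over the tested protocadherins was -1.92 in the parotid and -1.45 in the submandibular gland, against -0.004 and 0.01 over all genes tested.

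Unclustered genes differed most. Pcdh12 had no count in replicates 1 and 3 and 0.0938 and 0.193 CPM in the other libraries of parotid epithelium, against 18.3, 18.9, 10.9 and 16.9 CPM in parotid mesenchyme (log2 fold change -7.76, SE 0.45, adjusted p = 2.1e-10). It was likewise lower in submandibular epithelium (-7.02, SE 0.41). Pcdh12 of epithelium was 0.441 and 0.761% of its mesenchymal level in the parotid and submandibular glands, where summed endothelium markers were 2.11 and 1.87%. That sum rested on few genes, since 2 and 3 of the 12 markers averaged at least 1 CPM in parotid and submandibular epithelium. The median log2 fold change of the markers was -6.78 in the parotid gland, above that of Pcdh12. In the submandibular gland it was -9.66, below that of Pcdh12. Pcdh10 was at 0.297, 0.235, 1.41 and 0.819 CPM in parotid epithelium (-7.23, SE 0.41) and Pcdh20 at no more than 0.265 CPM in submandibular epithelium (-7.86, SE 0.79), against the mesenchymal values given above. Pcdh17 and Pcdh9 were lower in epithelium of the parotid gland by fitted log2 fold changes of -6.56 and -6.64, and in that of the submandibular gland by -6.10 and -6.23.

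Pcdh18 was also lower in epithelium of both glands, but by 2.4-fold in the parotid and 2.64-fold in the submandibular gland, and it took 86.5 to 90.6% of the unclustered counts of parotid epithelium and 67.4 to 78.2% of those of submandibular epithelium. Per kilobase it had 49.0 CPM in parotid epithelium and 38.0 CPM in submandibular epithelium, above every other protocadherin there.

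Pcdh8 and Pcdh7 were called higher in epithelium of the submandibular gland. Pcdh8 was higher in its epithelium, with 1.83, 3.26, 5.46 and 3.56 CPM, than in its mesenchyme, with 1.53, 0.899, 0.465 and 1.09 CPM (log2 fold change 1.81, SE 0.58, adjusted p = 0.011). The groups of Pcdh8 did not overlap. In the parotid gland it was at 1.10, 2.81, 1.13 and 1.35 CPM in epithelium, against 0.590, 2.74, 0.434 and 0.280 CPM in mesenchyme, with no call. Replicate 2 of parotid mesenchyme decided this, since without it Pcdh8 was called higher in parotid epithelium too (1.88, adjusted p = 4.54e-03). Pcdh7 of the submandibular gland narrowly passed the test (0.45, SE 0.20, adjusted p = 0.04997), its libraries overlapped, and the call was lost in 21 of 24 alternatives. In the parotid gland Pcdh7 was 22.1-fold lower in epithelium (-4.47, SE 0.22).

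**Figure D3:**
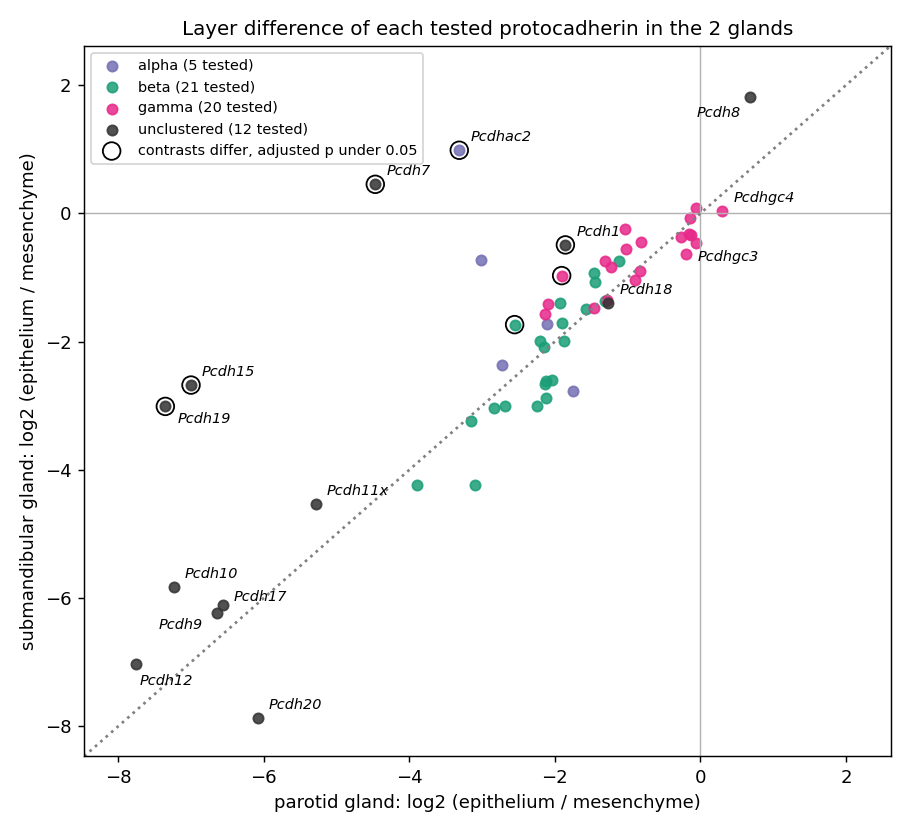
Log2 fold change of epithelium over mesenchyme in the parotid gland (horizontal axis) and the submandibular gland (vertical axis) for the 58 tested protocadherins, coloured by class, with a dotted line of equal change and rings on genes whose contrasts differed. All 21 beta genes lie below 0 in both glands, and Pcdh7 lies at -4.47 in the parotid and 0.45 in the submandibular gland.

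The beta cluster (chr18:37264938-37524479) was lower in epithelium in its tested genes. All 21 tested members were lower in epithelium in both glands, with log2 fold changes of -3.89 to -1.12 in the parotid gland and -4.24 to -0.74 in the submandibular gland. Over all genes tested, 33.5% were lower in epithelium of the parotid gland and 33.7% in that of the submandibular gland. Summed over the cluster, CPM was 84.6, 80.7, 77.0 and 80.1 for parotid epithelium and 55.8, 57.8, 60.8 and 51.5 for submandibular epithelium, against 249, 289, 305 and 378 in parotid mesenchyme and 221, 188, 184 and 196 in submandibular mesenchyme. Epithelium thus held 26.4% and 28.6% of the mesenchymal sum in the parotid and submandibular glands. No single beta gene dominated: the leading gene of a library took 9.98 to 17.3% of the cluster's counts, and 19 to 22 of the 22 genes had at least 5 counts.

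Among beta genes Pcdhb20 had the highest mean level per kilobase in mesenchyme. It had 10.3 CPM per kb in the parotid gland and 5.33 in the submandibular gland. In submandibular mesenchyme Pcdhb9 was next with 4.53 ± 1.13 CPM per kb, and the gap was smaller than this SD. In epithelium Pcdhb20 had 1.75 in the parotid and 1.61 in the submandibular gland. Pcdhb11, Pcdhb16 and Pcdhb17 followed it in total CPM in parotid mesenchyme, at 29.7 ± 8.73, 27.8 ± 4.11 and 27.8 ± 2.77 CPM (SD, n = 4). Pcdhb1, at the start of the cluster, was not tested; its libraries together held 12 counts for parotid epithelium and 11 for submandibular epithelium, against 0 in parotid mesenchyme and 7 in submandibular mesenchyme. Pcdhb12 is uncertain, since 1.107 kb of its 3.034 kb of exon is free of another annotated gene, and the libraries do not keep strand. Pcdhb21 and Pcdhb22 share a small part of their exons with each other.

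Between the glands, beta genes were higher in parotid where they were called: 5 of 21 in epithelium and 9 of 21 in mesenchyme, and none lower. Over all genes 11.2% were higher in epithelium and 20.8% in mesenchyme, and 9.72% and 13.7% lower. Median log2 differences were 0.68 in epithelium and 0.67 in mesenchyme. The 5 in epithelium were Pcdhb9, Pcdhb11, Pcdhb14, Pcdhb16 and Pcdhb18, of which Pcdhb9, Pcdhb14 and Pcdhb18 are named after their values were seen. The call of Pcdhb9 was lost in 6 of 24 alternatives, and those of Pcdhb14 and Pcdhb18 when only the epithelial libraries were fitted. Of the 5 called in epithelium, Pcdhb11 changed most there. It had 6.83 ± 1.1 CPM for parotid epithelium against 2.27 ± 0.798 CPM for submandibular epithelium (log2 difference 1.60, SE 0.25, edgeR adjusted p = 3.01e-04). In mesenchyme it had 29.7 ± 8.73 CPM in the parotid gland against 16.5 ± 3.28 CPM in the submandibular gland (0.85, SE 0.23). Pcdhb20 was higher in mesenchyme, at 36.5 ± 6.73 CPM in the parotid gland and 19.0 ± 2.82 CPM in the submandibular gland (0.95, SE 0.18, adjusted p = 5.76e-04), but had 6.23 ± 0.557 CPM in parotid epithelium and 5.72 ± 1.44 CPM in submandibular epithelium, with no call.

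**Figure D4:**
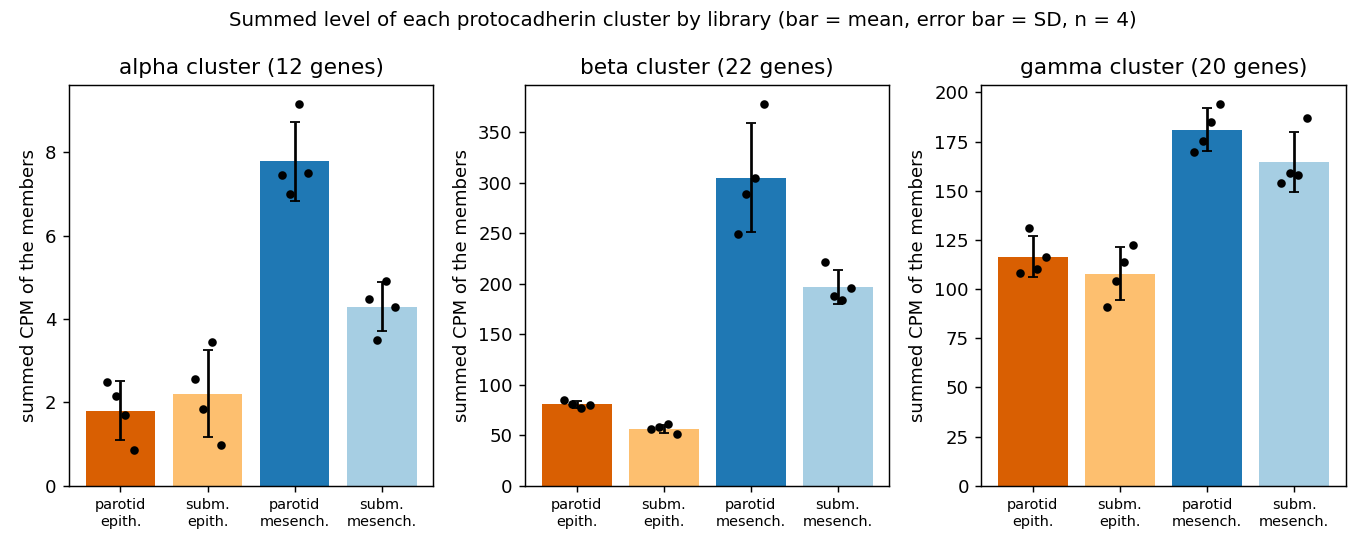
Summed CPM of the alpha, beta and gamma cluster members in parotid epithelium, submandibular epithelium, parotid mesenchyme and submandibular mesenchyme, with a point for each library, bars at the mean and error bars of 1 SD (n = 4). The beta sum is 80.6 ± 3.13 in parotid epithelium and 305 ± 54.0 in parotid mesenchyme, and the gamma sum differs less between layers.

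The gamma cluster (chr18:37661793-37841873) was divided. In the parotid gland 12 of its 20 genes were lower in epithelium and 8 were not called, and in the submandibular gland 13 were lower and 7 not called. The shares lower over all genes tested were 33.5% and 33.7% in these glands. Its summed level was 116 ± 10.4 CPM in parotid epithelium and 108 ± 13.6 CPM in submandibular epithelium, against 181 ± 10.7 CPM in parotid mesenchyme and 165 ± 15.2 CPM in submandibular mesenchyme (SD, n = 4 each). Pcdhgb6 and Pcdhgb7 were lower in epithelium of both glands. Pcdhgb6 had 8.96 ± 1.81 CPM in parotid epithelium against 24.6 ± 2.68 CPM in parotid mesenchyme, and 8.02 ± 1.66 CPM in submandibular epithelium against 22.4 ± 1.03 CPM in submandibular mesenchyme.

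The 3 C-type genes at the end of the cluster were among the 8 not called between the parotid layers. Pcdhgc3 led the cluster in every library, with 20.9 to 34.5% of its counts and 18.9 to 24.0 CPM per kb as a group mean. It had 32.1, 44.7, 37.0 and 38.1 CPM in parotid epithelium, against 38.8, 45.8, 38.7 and 42.9 CPM in parotid mesenchyme, and 28.6, 34.8, 32.2 and 42.2 CPM in submandibular epithelium, against 37.4, 43.2, 43.4 and 50.8 CPM in submandibular mesenchyme. Libraries of the layers overlapped in both glands, and the submandibular difference alone was called (log2 fold change -0.34, SE 0.13, adjusted p = 0.028). That call was lost without submandibular epithelium replicate 1 (adjusted p = 0.092) or 3 (0.063), or without submandibular mesenchyme replicate 4 (0.101). Pcdhgc4, on which the survival of many neurons depends in mice, had 9.92 ± 0.877 CPM in parotid epithelium against 8.04 ± 0.453 CPM in parotid mesenchyme, and 11.9 ± 1.58 CPM in submandibular epithelium against 11.6 ± 1.62 CPM in submandibular mesenchyme, with no call between layers. It was the only protocadherin called lower in parotid than in submandibular mesenchyme (-0.53, SE 0.14, adjusted p = 8.37e-03). Pcdhgc5 was at 2.94 ± 0.315 CPM in parotid epithelium, 3.71 ± 1.0 CPM in submandibular epithelium, 3.27 ± 0.871 CPM in parotid mesenchyme and 4.67 ± 1.02 CPM in submandibular mesenchyme, with no call in any comparison.

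**Figure D5:**
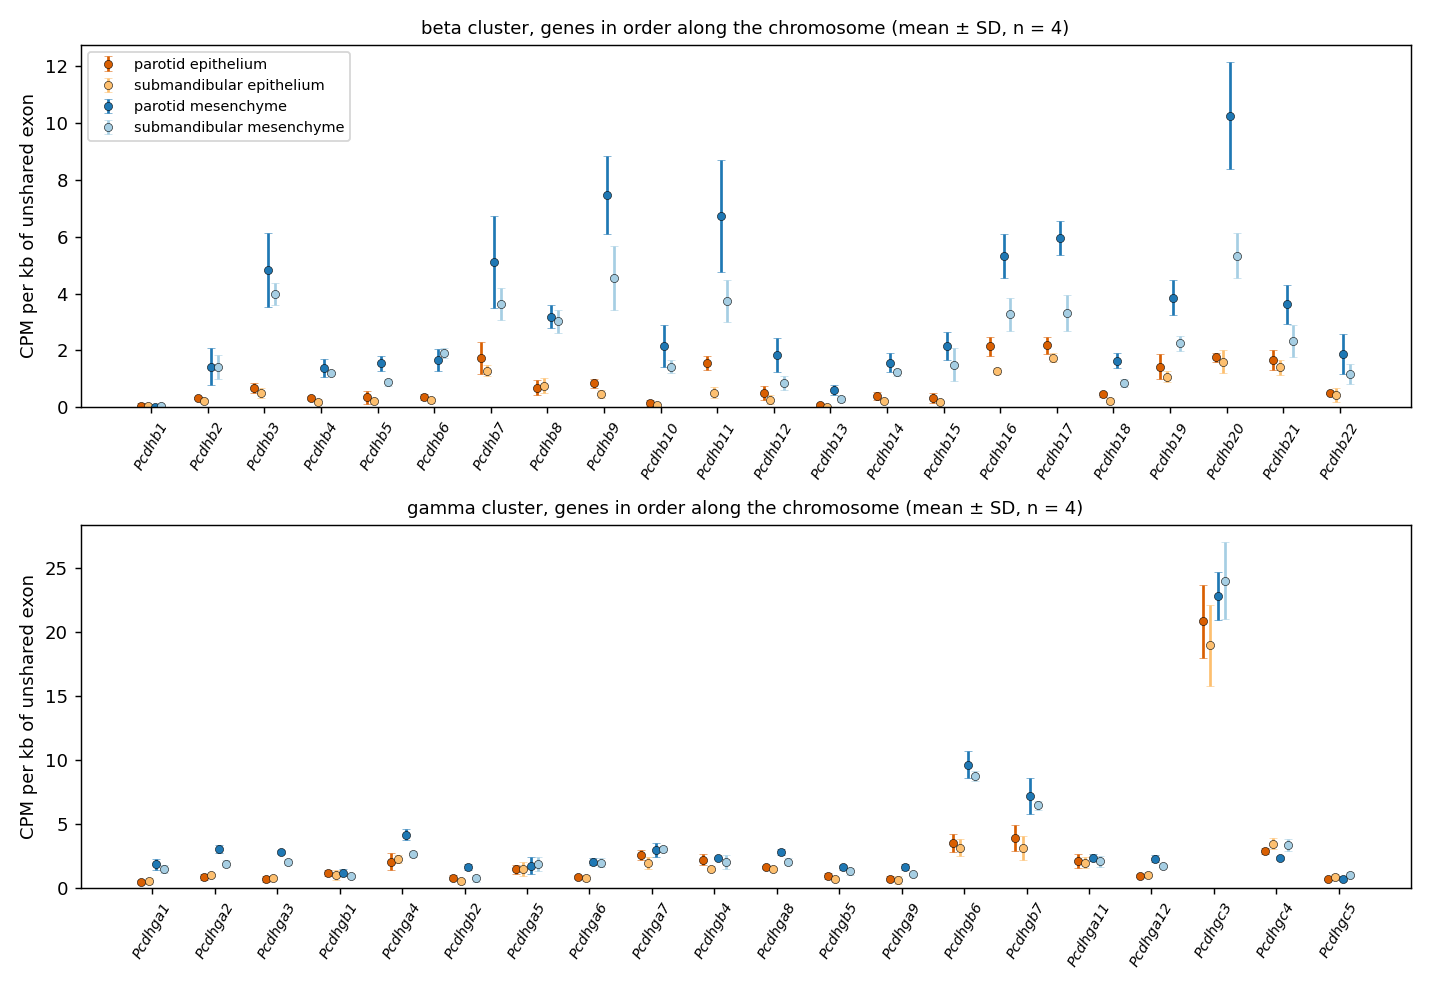
Mean CPM per kilobase of unshared exon (error bars 1 SD, n = 4) of the beta genes (upper panel) and gamma genes (lower panel) in their order along the chromosome, for parotid epithelium, submandibular epithelium, parotid mesenchyme and submandibular mesenchyme. Mesenchyme exceeds epithelium at the 21 tested beta genes, Pcdhb20 reaches 10.3 CPM per kb in parotid mesenchyme, and Pcdhgc3 near the end of the gamma cluster reaches 18.9 to 24.0 CPM per kb in every group.

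Between the glands, 1 of 20 gamma genes was called in epithelium, Pcdhgb4, at 7.84 ± 1.47 CPM in the parotid gland and 5.24 ± 0.698 CPM in the submandibular gland. That call was lost in 9 of 24 alternatives. In mesenchyme 4 of 20 were higher in parotid, Pcdhga2, Pcdhga4, Pcdhga8 and Pcdhgb2, by 1.37-fold to 2.21-fold. Over all genes tested, 11.2% were called higher in parotid epithelium and 20.8% in parotid mesenchyme, so these counts do not exceed those shares. The calls of Pcdhga8, Pcdhga4 and Pcdhga2 were lost in 12, 6 and 1 of 24 alternatives. These genes are named after their values were seen. Gamma and alpha genes share their constant exons, which leaves 1.26 to 4.61 kb of unshared exon a gene. How the authors assigned reads of shared exons is not stated in the sources used here. Pcdhga10, whose exons are all shared in GENCODE M21, had 0 counts in every library, so no reads of shared exons were counted to that gene. Levels within these clusters are uncertain.

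The alpha cluster (chr18:36930184-37187661) was at low levels. Its summed level was 1.81 ± 0.707 CPM in parotid epithelium and 2.21 ± 1.04 CPM in submandibular epithelium, against 7.79 ± 0.943 CPM in parotid mesenchyme and 4.30 ± 0.591 CPM in submandibular mesenchyme. All 5 tested members were lower in epithelium of the parotid gland, and 3 in that of the submandibular gland, where 33.5% and 33.7% of all genes tested were lower. Pcdhac2 led in submandibular epithelium replicates 1, 2 and 3, with 45.1, 58.7 and 49.2% of the cluster's counts, and Pcdha5 led in parotid epithelium replicate 4. The leading member of every other library was Pcdha10. Pcdha10 was at 0.572 ± 0.227 CPM in parotid epithelium against 2.49 ± 0.307 CPM in parotid mesenchyme, and 0.403 ± 0.275 CPM in submandibular epithelium against 1.30 ± 0.359 CPM in submandibular mesenchyme. GENCODE M21 gives the gene that the authors' table calls Pcdha10 the name Pcdha11, which that table gives to another gene. Pcdha9 fell by 2.72 and 2.36 on the log2 scale in parotid and submandibular epithelium, and Pcdha5 by 1.74 and 2.76. The parotid call of Pcdha5 was lost without parotid epithelium replicate 1 or 3 or parotid mesenchyme replicate 3 or 4 (adjusted p = 0.058 to 0.069).

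Pcdhac2, a C-type alpha gene, was called lower in parotid than in submandibular epithelium. It had 0.297 and 0.0938 CPM in replicates 1 and 2 and no count in replicates 3 and 4 of parotid epithelium, against 1.15, 1.09, 1.70 and 0.110 CPM in submandibular epithelium (a log2 difference of -3.22, SE 0.90, adjusted p = 0.018). The groups overlapped through replicate 4 of submandibular epithelium, and parotid epithelium held 9 counts in all. The call was lost without parotid epithelium replicate 3 (adjusted p = 0.053) or replicate 4 (0.052), and without both erythroid-rich libraries (0.098). It had 1.07 ± 0.59 CPM in parotid mesenchyme and 0.499 ± 0.281 CPM in submandibular mesenchyme. Pcdhac1, the other C-type gene of the cluster, had 2 to 23 counts in all per group and was not tested.

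Genes that act with protocadherins were read from 5 lists of 54 genes in all. Of these 10 were higher and 4 lower in parotid than in submandibular epithelium, and 16 and 7 in mesenchyme, where 11.2 and 9.72% of all genes tested were higher and lower in epithelium and 20.8 and 13.7% in mesenchyme. Between layers 21 were higher and 13 lower in epithelium of the parotid gland, and 19 and 16 in that of the submandibular gland. Over all genes tested the shares higher and lower were 31.4 and 33.5% in the parotid gland and 33.3 and 33.7% in the submandibular gland, and the counts of each list below are to be read against these shares. Among 11 genes of CTCF, cohesin and its loader, which choose clustered promoters, 6 were higher in epithelium of both glands (Ctcf, Rad21, Smc1a, Smc3, Wapl and Pds5a), and Pds5b and Stag1 were lower in that of the submandibular gland. Ctcf had 149.5 ± 10.47 CPM in parotid epithelium against 105 ± 7.75 CPM in parotid mesenchyme, and 140.0 ± 9.64 CPM in submandibular epithelium against 103 ± 3.89 CPM in submandibular mesenchyme. Among 10 genes of DNA methylation and chromatin silencing, 7 and 6 were higher in epithelium of the parotid and submandibular glands, and Dnmt3a was the 1 lower gene in each. The methyltransferase gene Dnmt3b had 39.2 ± 5.90 CPM in parotid epithelium against 12.4 ± 0.914 CPM in parotid mesenchyme, and 30.7 ± 5.16 CPM in submandibular epithelium against 15.5 ± 1.89 CPM in submandibular mesenchyme.

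Of 11 giant cadherins and planar polarity cadherins, 5 were higher and 4 lower in epithelium of the parotid gland, where 64.9% of all genes were called. Celsr1, a planar polarity receptor, had 87.0 ± 16.9 CPM in parotid epithelium against 5.48 ± 0.896 CPM in parotid mesenchyme, and 106 ± 26.2 CPM in submandibular epithelium against 3.12 ± 0.691 CPM in submandibular mesenchyme. Fat2, a giant cadherin of epithelia, was higher in epithelium by 5.97 and 7.20 on the log2 scale in the parotid and submandibular glands. Dchs2 and Fat3 were lower in parotid epithelium than in parotid mesenchyme, by log2 fold changes of -3.83 and -3.22, and Fat4 was lower in epithelium of the parotid gland (-2.84) and the submandibular gland (-4.40). In mesenchyme Fat1, Fat3 and Dchs2 were higher in parotid than in submandibular gland, by log2 fold changes of 1.77, 2.00 and 1.92.

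Dab1, the adaptor that Pcdh18 binds, had 12.7 ± 1.02 CPM in parotid epithelium against 2.91 ± 1.07 CPM in submandibular epithelium, and 7.71 ± 4.86 CPM in parotid mesenchyme against 1.88 ± 0.915 CPM in submandibular mesenchyme, and was called in both layers. Fat4 and the WAVE subunit gene Cyfip2 were higher in parotid than in submandibular epithelium, by log2 fold changes of 2.13 and 1.66. Of 10 WAVE complex genes 4 were higher and 1 lower there, where 11.2% of all genes were higher and 9.72% lower, and 3 were higher in parotid mesenchyme, where 20.8% of all genes were. Ret, a receptor kinase that binds clustered protocadherins in neurons, had 3.33, 2.52, 2.45 and 1.82 CPM in parotid mesenchyme, against 2.96, 2.497, 19.4 and 7.51 CPM in submandibular mesenchyme. The groups overlapped, and submandibular replicate 3, which also had most neuron markers of its group (377 CPM), stood highest. The call (log2 fold change -1.68, adjusted p = 0.022) was lost without that library (-0.77, adjusted p = 0.204) and in 3 other of 24 alternatives, without parotid mesenchyme replicate 3 (0.0503) or 4 (0.061) and with a replicate block (0.078).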

How the data were processed

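RNA of 16 libraries was made into full-length cDNA and tagmented libraries that do not keep strand, per the labels' protocols. STAR 2.5.2a, edgeR and the build GRCm38 (mm10) come from the submitters' processing notes, while the counting program and the annotation were not given in the sources used here. From these steps the authors deposited raw counts per gene, which were tested, and a normalized signal named CPM in the authors' table, which gave symbols and the 66 members. Their filtered counts were read only to check units. CPM were recomputed with TMM factors and differed from the deposited signal by at most 4.45%.

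The robust quasi-likelihood model of edgeR 4.0.16 (R 4.3.3) was fitted once to all 16 libraries after filterByExpr on the groups, which kept 18191 genes and at least 99.88% of counts, and 92 spike-in features were left out. SE is the log2 fold change divided by the square root of F, fitted log2 fold changes include a prior count, and p-values measure the spread among libraries. The test was tried on simulated counts. Locations and unshared exon lengths came from GENCODE M21, and promoters from RefSeq. Exons of Pcdh7, Pcdh8, Pcdh10 and Pcdh19 each overlap another annotated gene in part.

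Members, lists and tests were chosen with earlier results of these data known. Named are all unclustered genes, the 4 highest of each cluster, C-type genes, up to 3 called members per contrast and direction with at least 1 CPM, and up to 4 pathway genes per contrast with at least 5 CPM. Genes named from the lists of CTCF and cohesin, of DNA methylation and silencing, and of cell type markers fall outside this rule. Their calls were not put through the alternative analyses. Pcdhb9, Pcdhb14, Pcdhb18, Pcdhga2, Pcdhga4, Pcdhga8, Pcdhgb2 and Pcdhgb4 were named after their values were seen. Alternatives were other scalings, DESeq2 1.42.0, other filters, fits to the groups compared, a replicate block and each library left out.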

Additional observations from a re-analysis of the deposited data

Results flagged for a closer look

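In 7 of 131 groups of 4 libraries of a named gene, 1 library stood apart from the other 3, and chance alone gives about 6.6. Pcdh8 was at 2.81 CPM in parotid epithelium replicate 2, against 1.10 to 1.35 CPM in the others, and at 2.74 CPM in parotid mesenchyme replicate 2, against 0.280 to 0.590 CPM. Pcdh1 was at 26.5 CPM in parotid mesenchyme replicate 2, against 17.3 to 18.5 CPM. Pcdh15 was at 1.33 CPM in submandibular epithelium replicate 3, against 0 to 0.108 CPM, which bears on its difference between layers. Pcdhgb4 was at 10.2 CPM in submandibular mesenchyme replicate 4, Pcdhgb2 at 2.17 CPM in submandibular epithelium replicate 3 and Pcdha9 at 0.254 CPM in parotid epithelium replicate 1.

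The gland contrast (parotid minus submandibular, log2) was lower in epithelium than in mesenchyme by the test of that difference for Pcdh7 (-4.92), Pcdh19 (-4.34), Pcdh15 (-4.32), Pcdhac2 (-4.30), Pcdh1 (-1.36), Pcdhga2 (-0.94) and Pcdhb20 (-0.82).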

How the results depend on the processing

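Of 123 called values of named genes, 98 kept their call and direction in each of the 22 to 24 alternatives that gave them a value, 25 lost the call in at least 1, and none reversed. The number of protocadherins called between parotid and submandibular epithelium was 13, and 5 when only these 8 libraries were fitted. It was 8 to 15 with any 1 library left out, the 8 without parotid epithelium replicate 4. The number called for the difference of gland contrasts was 7, but 4 when scaled by library total alone and 3 with no filter beyond 1 count. With 1 library left out it was 4 to 8, the 4 without parotid epithelium replicate 4, submandibular epithelium replicate 3, parotid mesenchyme replicate 3 or submandibular mesenchyme replicates 2 or 3. An alternative chosen after seeing the data left out parotid epithelium replicate 4 and submandibular epithelium replicate 1, which held most erythroid counts of their groups. It gave 8 in epithelium and 3 for the difference, with Pcdh7, Pcdh19 and Pcdh15 still called there and Pcdh17 of epithelium lost (adjusted p = 0.157). The other 3 counts stayed within 1.5 times under all alternatives: with a library left out they were 17 to 23 in mesenchyme, 48 to 50 between parotid layers and 43 to 48 between submandibular layers. DESeq2 called 14, 23, 49, 47 and 8. Deviations of same-numbered libraries from their group means correlated at -0.117 to -0.006 between parotid layers and 0.021 to 0.218 between submandibular layers. Between the glands they correlated at 0.020 to 0.157 in epithelium and -0.040 to 0.033 in mesenchyme. These values do not settle whether the numbers pair samples. A replicate block called 13, 20, 49, 47 and 6. Scaling by library total moved the median of all genes between mesenchymes to -0.14 on the log2 scale and the protocadherins called there to 14 higher and 2 lower. Depth limits the alpha cluster: at 1, 5 and 10 counts the number of its genes detected in parotid epithelium averaged 8, 4 and 0.75. The causes were not tested.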

Other observations

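4 annotated genes of the clusters were outside the deposited expression table. In the raw counts Pcdha1, Pcdha4 and Pcdhgb8 had at most 1 count in any library, and Pcdhga10, whose exons are all shared with other genes in GENCODE M21, had 0. Pcdha4 has 0.404 kb of exon of its own.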
